A study of Saccharomyces cerevisiae with 64 samples.

Results

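The peroxisome genes of budding yeast were followed through sporulation in kfc1 mutant and wild type cells. The 32 genes are the 29 whose standard symbol is PEX and a number, which build the organelle, and the 3 enzymes of the core beta-oxidation spiral, POX1, FOX2 and POT1. They were picked by symbol from the 6660 genes of the table, with earlier results of these data known, and each of them had a value in every condition.

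Peroxisomes are the only site of fatty acid beta-oxidation in Saccharomyces cerevisiae. Matrix enzymes are made in the cytosol, bound there by receptors that read targeting signals, carried through a docking complex and released inside, after which the receptor is pulled back out by a ubiquitin and ATPase system. Genes of fatty acid breakdown are known to be repressed by glucose, released on acetate and other non-fermentable carbon sources, and strongly induced by oleate through the transcription factors Oaf1 and Pip2, which bind the oleate response element.

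The series holds poly(A) RNA-seq of S288c cells placed in sporulation conditions, with 64 samples in 32 conditions of 2 biological replicates each. The kfc1 mutant carries the genotype written as kfc1 -- in the labels and was sampled without overexpression and with IME1 overexpression at 0, 2, 4, 6, 8 and 12 h, and with IME1 and RIM4 overexpression together at 0, 12, 24 and 48 h. Wild type was sampled in the same 3 arms at the same hours. IME1 encodes the master transcription factor of meiotic entry, RIM4 an RNA-binding protein that controls translation in meiosis, and the strain names place both genes behind a promoter called Pzev. The arms without overexpression kept the IME1 promoter. Neither the inducer and the medium nor the number of clones behind each strain is stated in the labels.

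Each condition has 1 value per gene: a log2 ratio that combines both replicates, set to zero at wild type without overexpression, 0 h. The spread between replicates cannot be recovered from it, the sequencing depth is unknown, and no difference below carries a test or an error. A gene was called higher or lower when its mean log2 difference over the time points reached 1, a 2-fold change, with the same sign at each time point; at a single time point the size alone counted. Each count is set beside the percentage of all genes with values that met the same rule; 1 of 32 is 3.13% and 3 of 32 is 9.38%, and a share near or under the background describes the genes named, not the group. The ratios say nothing of absolute levels, so genes are not ranked by abundance. In these bulk cultures, fewer cells in a given state and less RNA per cell cannot be told apart.

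For kfc1 without overexpression, the 5 columns from 2 to 12 h appear to take kfc1 itself at 0 h as their zero point, so that column was added back to each of them. Genes left blank in wild type without overexpression bear on this reading: of their 412 values in the other arms and at kfc1 0 h, 0 were negative, against 31 of 102 in those 5 columns. Kfc1p is known as part of the complex that methylates messenger RNA in early meiosis, and its gene was taken from outside knowledge to be VIR1, which lay between -9.41 and -4.70 in the kfc1 conditions and between -0.07 and 2.07 in the wild type conditions. Wild type samples of the unmodified and IME1 arms, 24 in all, are marked as re-used in their titles, which do not say from where. Genotype and re-use of samples cannot be told apart in those arms. The 0 h column of wild type with IME1 stands apart from the other 0 h columns: the SD over all genes was 0.94, against 0.34 to 0.67 in the other 4 measured at 0 h. The selectable marker URA3 ran between 5.77 and 9.19 in kfc1 with IME1 and RIM4 and had 1 value, 1.13, in wild type with both genes, and LEU2 ran between 6.87 and 7.91 in wild type with IME1 and had no value in kfc1. Marker genes thus separate the genotypes in those arms as well. With IME1, URA3 ran between 4.47 and 8.25 in kfc1 and between 6.90 and 7.94 in wild type. Without overexpression it lay between -0.06 and 0.02 in kfc1 and between 0 and 0.04 in wild type. Overexpression of IME1 and marker genes therefore cannot be told apart between these arms.

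**Figure D1:**
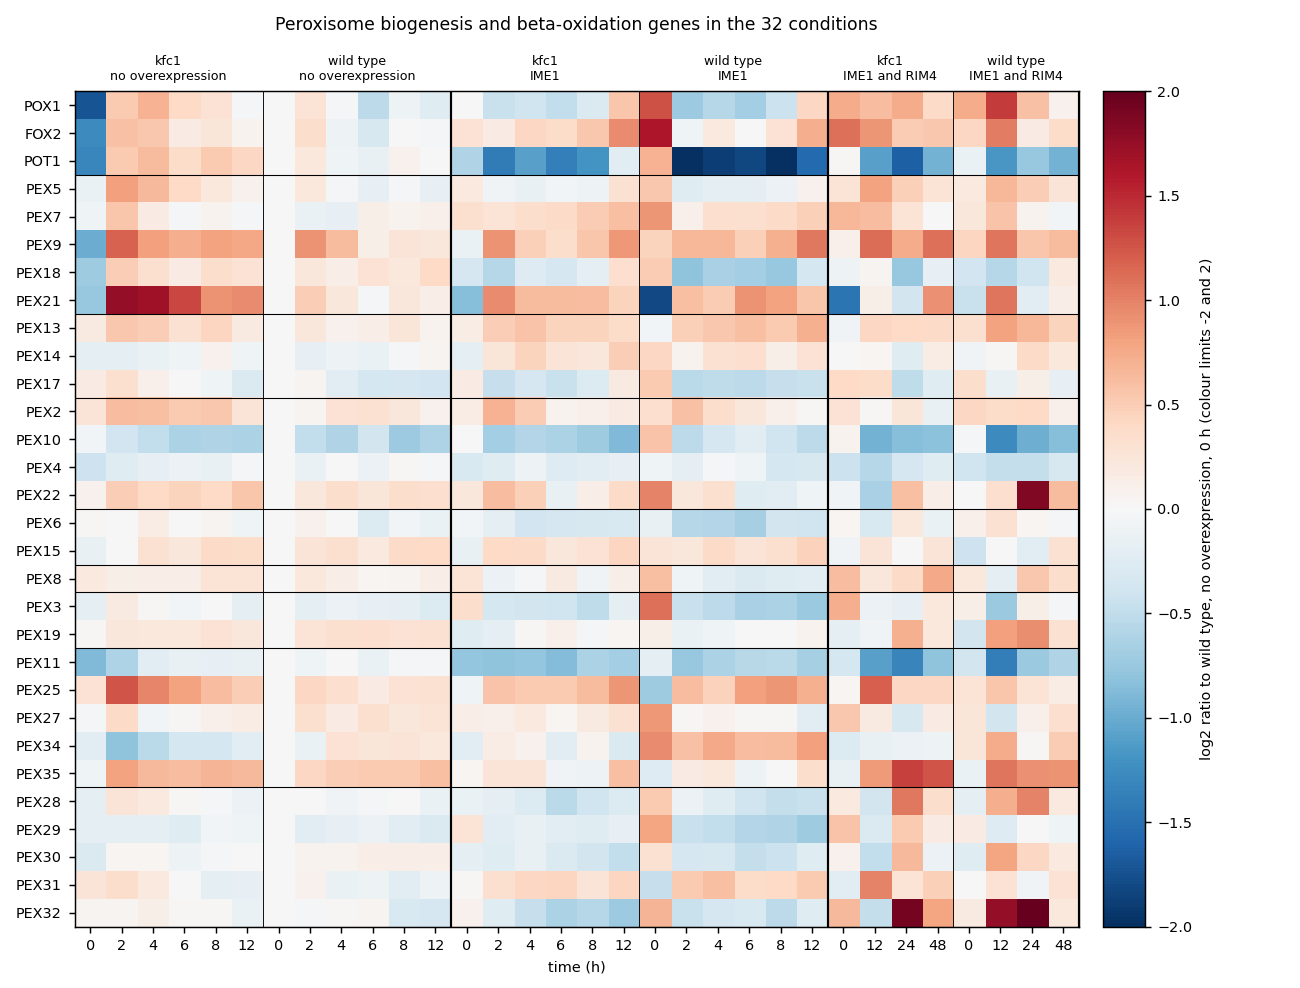
Log2 ratio of 30 of the 32 genes (rows, grouped by role) in the 32 conditions (columns, by genotype, overexpression and hour) to wild type without overexpression at 0 h, with colours limited at -2 and 2. The beta-oxidation genes are low in kfc1 at 0 h without overexpression, POT1 is low with IME1 in both genotypes, and PEX32 is high with IME1 and RIM4 at 24 h in both genotypes.

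The oleate response element, shown because it is the known site of fatty acid control and the beta-oxidation genes showed the lowest genotype differences at 0 h, was searched on both strands as CGG, 3 free bases, T, 1 free base, A, 9 to 12 free bases and CCG. In the 300 bases before the start codon (genome build R64, which is sacCer3), 7 of 32 genes held it (21.9%), against 62 of 6002 genes in the genome (1.03%). The match of each follows, with 3 flanking bases on each side and the fixed letters in capitals, read 5′ to 3′ on the strand named.
POX1, chrVII:107880-107908, plus strand: attCGGtcaTtAgcggctaatagCCGttg
FOX2, chrXI:457302-457328, plus strand: ataCGGcgtTaAcaaatttccCCGtcg
POT1, chrIX:41607-41635, minus strand: aaaCGGggaTaAtagtattaacaCCGcag
PEX5, chrIV:950385-950412, minus strand: attCGGagtTaAtcgcgatgatCCGttt
PEX6, chrXIV:22751-22780, minus strand: ataCGGcgaTaAtcgtcaacacttCCGgga
PEX11, chrXV:48753-48781, minus strand: cgtCGGcatTtAtctcggagaacCCGaag
PEX13, chrXII:537113-537142, minus strand: cttCGGaaaTaAaaaaaatttggcCCGctg
The POX1 and POT1 stretches read as the motif on both strands. The PEX11 and PEX6 matches end 113 and 121 bases before the start codon, and that of POX1 begins 275 bases before it. Widening the window to 500 bases added no gene to the 7, while the genome count went to 113 (1.88%). Of 40 partner genes of peroxisomal metabolism, 9 held it in 300 bases (22.5%). The element is known from genes of this kind, so its high shares in both lists are no new result of these data. The URS1 core GGCGGC, a site of the meiotic regulator Ume6, was found before PEX6 and PEX9, 2 of 32 genes (6.25%), against 312 of all genes (5.2%). These are letter matches, not measured binding sites.

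The beta-oxidation enzymes were the peroxisome genes with the largest genotype difference at 0 h without overexpression. POX1 encodes the acyl-CoA oxidase that starts the spiral, FOX2 the multifunctional enzyme of its middle steps and POT1 the thiolase that ends it. Without overexpression at 0 h they stood in kfc1 at -1.73 for POX1, -1.31 for POT1 and -1.27 for FOX2, with wild type at 0 by definition. These are 3 of 32 genes called lower, against 1.14% of all 6510 genes, and no member was called higher, against 0.507% of genes. Counted from the lowest difference of the whole table, POX1 was number 11, POT1 number 36 and FOX2 number 41.

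From 2 h on, the 3 genes lay above wild type. POX1 had log2 ratios of 0.53, 0.69, 0.41, 0.29 and -0.03 at 2, 4, 6, 8 and 12 h in kfc1, against 0.28, -0.04, -0.52, -0.10 and -0.25 in wild type. POT1 had 0.52, 0.63, 0.37, 0.52 and 0.41 in kfc1, against 0.21, -0.09, -0.15, 0.09 and 0.01 in wild type. FOX2 had 0.58, 0.53, 0.16, 0.24 and 0.06 in kfc1, against 0.35, -0.09, -0.32, 0.01 and -0.04 in wild type. All 3 lay above wild type at each of these 5 hours, but their mean differences of 0.34 to 0.50 stayed under the 2-fold rule.

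Set against its own 0 h value, each enzyme gene was therefore higher through the kfc1 course and in wild type lay between -0.52 and 0.35 throughout. The mean of 2 to 12 h minus 0 h in kfc1 was 2.10 for POX1 (1.70 to 2.42 over the 5 hours), 1.80 for POT1 and 1.58 for FOX2. With PEX21 at 2.09, PEX9 at 1.86 and PEX18 at 1.04 (0.99 once columns were centred on their mean) they make 6 of 32 genes called higher, against 6.85% of all genes, and 0 called lower, against 4.1%. In wild type the same course called 0 of 32, against 3.64% of all genes in either direction, with the members between -0.56 for PEX10 and 0.51 for PEX35. The low kfc1 0 h column enters both the 0 h difference and the kfc1 course, so these are not separate observations.

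The 7 genes with an oleate response element were not alike at 0 h. In kfc1 relative to wild type, PEX11 was at -0.88, PEX5 at -0.14, PEX6 at 0.03 and PEX13 at 0.19, beside the 3 enzyme genes. The 9 partner genes with the element had a median difference of -0.64, between -0.92 and 0.03, with 0 called. The 46 further genes of the genome with the element, outside the peroxisome lists, had a median of -0.04, and all genes had -0.02.

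**Figure D2:**
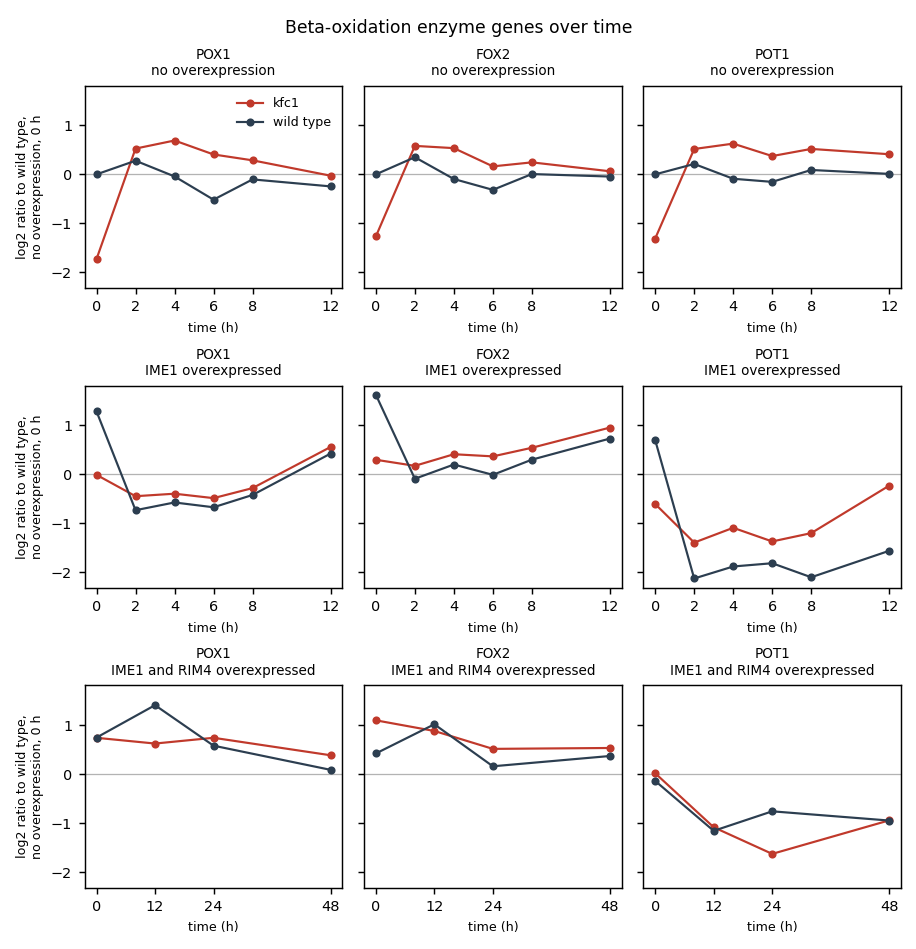
Log2 ratio of POX1, FOX2 and POT1 (columns) to wild type without overexpression at 0 h, against time in hours, in the 3 overexpression arms (rows), with kfc1 in red and wild type in dark blue; each point is 1 combined value of 2 replicates. In kfc1 without overexpression POX1, FOX2 and POT1 lie at -1.73, -1.27 and -1.31 at 0 h and at 0.53, 0.58 and 0.52 at 2 h.

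With the IME1 strains the enzyme genes were again lower in kfc1 at 0 h. FOX2 was at 0.29 in kfc1 and 1.62 in wild type, POX1 at -0.01 in kfc1 and 1.28 in wild type, and POT1 at -0.61 in kfc1 and 0.70 in wild type. With PEX34 these made 4 of 32 genes called lower, against 1.86% of all genes, and 0 called higher, against 10.7%. Differences of -1.33 for FOX2, -1.30 for POT1 and -1.29 for POX1 rest on the wild type 0 h column that stands apart. Here POX1 and FOX2 were high in wild type and not low in kfc1, whereas POT1 lay about as far below 0 in kfc1 as above 0 in wild type. The median of the 32 genes was -0.51 in this comparison, with 26 below 0, beside -0.00 for all genes.

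After 0 h POT1 parted from its fellow enzymes. In kfc1 with IME1 it ran at -1.39, -1.09, -1.37, -1.20 and -0.23 from 2 to 12 h, and in wild type with IME1 at -2.13, -1.88, -1.82, -2.10 and -1.56. POX1 at the same hours spanned -0.49 to 0.56 in kfc1 and -0.73 to 0.42 in wild type, and FOX2 spanned 0.17 to 0.95 in kfc1 and -0.09 to 0.73 in wild type. POT1 was thus the gene of the 3 that lay low with IME1 in either genotype, and lower in wild type than in kfc1 at each hour after 0 h. At 2 to 8 h no member was called between genotypes (POT1, the highest, differed by 0.72), against 0.476% of all genes. At 12 h POT1 was called higher in kfc1 by 1.33, 1 of 32 against 4.29% of all genes, and PEX34 was called lower, at -1.11, 1 of 32 against 4.61%.

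POT1 was also the single member called when IME1 overexpression was set against none over 2 to 12 h. The mean difference was -1.55 in kfc1, with -0.64 to -1.91 over the 5 hours, and -1.91 in wild type, with -1.57 to -2.34. That is 1 of 32 genes lower in each genotype, against 2.83% of all genes in kfc1 and 3.96% in wild type, and 0 higher, against 4.07% of all genes in kfc1 and 6.12% in wild type. Had the kfc1 0 h column not been added, 8 members would be called in kfc1. The marker URA3 separates the 2 arms too, so overexpression and marker genes cannot be told apart in this contrast. Other low members were PEX21 at -0.68 and POX1 at -0.59 in kfc1, and PEX18 at -0.90 in wild type. PEX18 encodes a co-receptor for the thiolase, the product of POT1, and its difference in kfc1 ran from -1.06 at 2 h to 0.06 at 12 h. The other co-receptor gene, PEX21, was higher with IME1 in wild type at each hour, by 0.10 to 0.92.

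Each IME1 course was then set against its own 0 h. In kfc1, PEX21 was the 1 member called higher of 32, at 1.51, against 9.7% of all genes, and 0 were called lower, against 4.98%. In wild type 8 members were called lower, against 12.6% of all genes: POT1 at -2.59, PEX3 at -1.70, POX1 at -1.68, FOX2 at -1.40, PEX29 at -1.35, PEX18 at -1.16, PEX32 at -1.05 and PEX17 at -1.01. PEX21 at 2.48 and PEX25 at 1.41 were called higher in that course, against 24% of all genes. When the zero point of the whole table served as the start instead, 1 of those 10 calls was left, POT1, and FOX2 was at 0.22.

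Under IME1 and RIM4 together none of the enzyme genes was called between genotypes. POX1 stood at 0.74, 0.62, 0.74 and 0.38 at 0, 12, 24 and 48 h in kfc1, against 0.74, 1.41, 0.58 and 0.09 in wild type. FOX2 stood at 1.10, 0.88, 0.51 and 0.53 in kfc1, against 0.42, 1.02, 0.16 and 0.37 in wild type. POT1 stood at 0.02, -1.08, -1.63 and -0.94 in kfc1, against -0.14, -1.16, -0.76 and -0.95 in wild type. The 3 enzyme genes were thus called lower in kfc1 than in wild type at 0 h in 2 of 3 arms, and stood below -1 in kfc1 in 1 of them. POT1 lay below its start at each hour after 0 h in both arms with IME1, except in kfc1 with IME1 alone at 12 h.

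Among the import receptor genes, PEX5 encodes the receptor for the common C-terminal signal and PEX9 a receptor for a small set of cargoes, whereas PEX7 binds the N-terminal signal and works with a co-receptor, PEX18 or PEX21. At 0 h without overexpression all 5 were below wild type, at -0.997 for PEX9, -0.76 for PEX21, -0.72 for PEX18, -0.14 for PEX5 and -0.09 for PEX7. None was called, PEX9 was the nearest to the rule, and PEX5 and PEX7 lay near the median of the 32 genes, -0.14.

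PEX21 showed the widest swings of the 32 genes without overexpression. It ran at -0.76, 1.76, 1.70, 1.34, 0.90 and 0.94 from 0 to 12 h in kfc1, against 0, 0.50, 0.23, -0.02, 0.23 and 0.13 in wild type. The genotypes did not cross again after 2 h, and the mean difference over 2 to 12 h was 1.11, with 0.68 to 1.47 over the 5 hours. It was the 1 member of 32 called higher, against 1.43% of all genes; 0 were called lower, against 0.369%. Without the added kfc1 0 h column 5 members would be called. PEX9 ran at -0.997, 1.18, 0.82, 0.72, 0.81 and 0.77 in kfc1, against 0, 0.90, 0.63, 0.12, 0.26 and 0.23 in wild type, and so was above wild type at each hour after 0 h without reaching the rule. PEX5 was at 0.82 in kfc1 at 2 h and 0.09 at 12 h, against 0.20 and -0.17 in wild type.

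With IME1 the PEX21 courses lay close together after the start. PEX21 had -0.86, 0.95, 0.63, 0.63, 0.61 and 0.44 in kfc1, against -1.80, 0.60, 0.51, 0.90, 0.80 and 0.55 in wild type. At 0 h in this arm PEX21 was higher in kfc1 by 0.95, the opposite sign to the arm without overexpression and the highest of the 32 genes there. Under both genes it had -1.45, 0.11, -0.36 and 0.92 in kfc1, against -0.44, 1.07, -0.22 and 0.14 in wild type. At 0 h of that arm the difference of -1.01 made PEX21 the 1 of 32 genes called lower, against 2.37% of all genes, with 0 called higher, against 0.369%; it was -0.95, no longer called, once each column was centred on its mean.

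In every arm and both genotypes the PEX21 value at the first sampling after 0 h was above the 0 h value. Its co-receptor partner PEX18 did not share this with IME1, where it had -0.33 at 0 h and -0.57 at 2 h in kfc1 and 0.51 and -0.80 in wild type. Over 12 to 48 h with IME1 and RIM4, PEX21 was called higher than its 0 h in kfc1, at 1.68, with PEX35 at 1.31, so 2 of 32 against 20.4% of all genes. POT1 at -1.24 was the 1 called lower in that course, against 13.2%, and after mean centring 5 members were called in all.

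**Figure D3:**
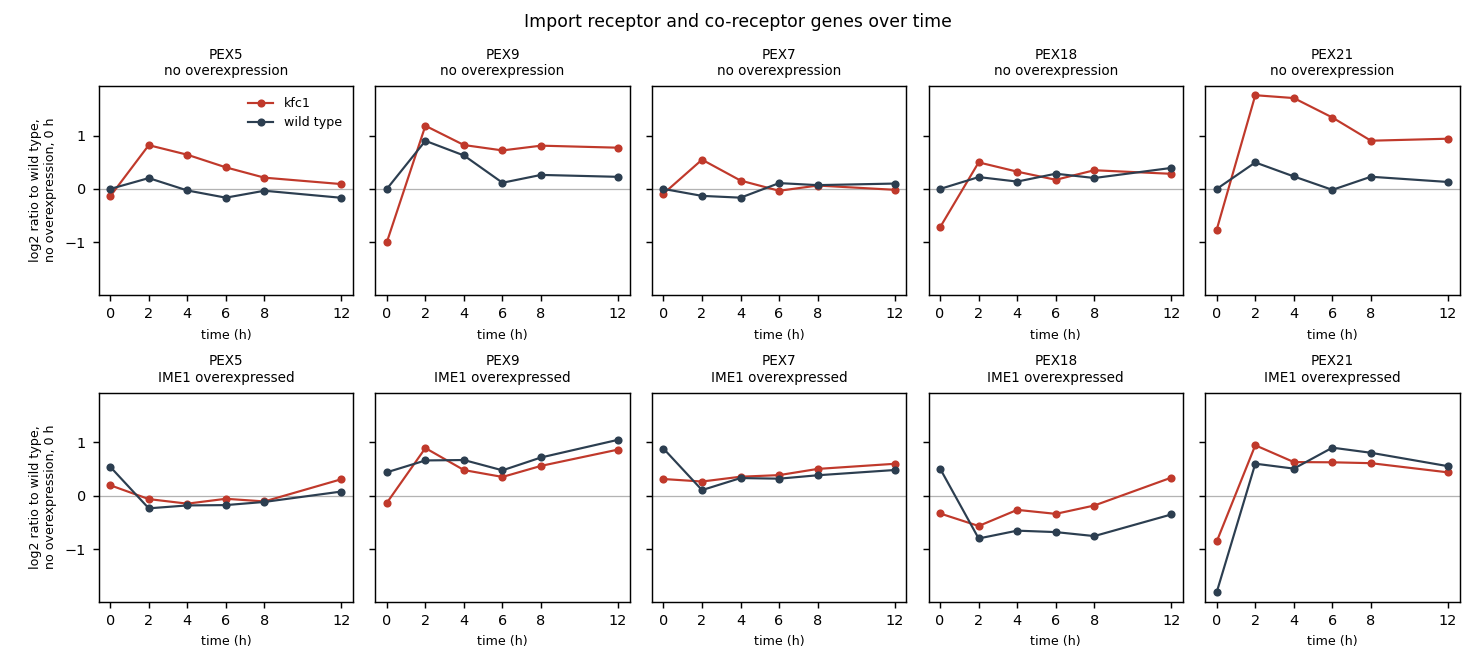
Log2 ratio of the 5 import receptor and co-receptor genes (columns) to wild type without overexpression at 0 h, against time in hours, without overexpression (upper row) and with IME1 (lower row), with kfc1 in red and wild type in dark blue. At 2 h PEX21 without overexpression lies at 1.76 in kfc1 and 0.50 in wild type, while with IME1 it lies at 0.95 in kfc1 and 0.60 in wild type.

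The proliferation genes set how many peroxisomes a cell has. PEX11 encodes a membrane-elongating protein that is itself part of the fatty acid response, PEX25 and PEX27 its relatives, and PEX34 and PEX35 regulators of peroxisome number. PEX34 was the gene of the 32 whose genotype difference kept 1 sign throughout. Without overexpression it ran at -0.23, -0.80, -0.53, -0.35, -0.35 and -0.23 in kfc1, against 0, -0.13, 0.28, 0.25, 0.26 and 0.21 in wild type. Under IME1 it ran at -0.22, 0.15, 0.09, -0.21, 0.07 and -0.29 in kfc1, against 0.94, 0.58, 0.76, 0.61, 0.63 and 0.82 in wild type. In the arm with RIM4 added it ran at -0.27, -0.15, -0.12 and -0.10 in kfc1, against 0.24, 0.74, 0.02 and 0.51 in wild type.

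PEX34 was therefore below wild type in 16 of 16 pairs of matched conditions, with differences of -0.14 to -1.16 and a mean of -0.64. Of the 6479 genes with a value in every pair, 9 were lower in kfc1 in all 16 (0.139%), and PEX34 was the sole member among them; it was singled out after its values were seen. The called differences were -1.16 at 0 h and -1.11 at 12 h, both with IME1. The pairs of an arm compare the same strains, so the 16 are not independent.

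The neighbours of PEX34 are close. It lies on chromosome III at 26925 to 27359 on the minus strand, 18 bases from PRD1 and 569 bases from the divergent gene KAR4, a known helper of messenger RNA methylation and mating gene expression. PRD1, a metallopeptidase gene whose transcription converges on PEX34, was also lower in kfc1 at each hour without overexpression, at -0.23, -0.45, -0.37, -0.25, -0.20 and -0.17 in kfc1, against 0, 0.05, 0.07, -0.05, 0.11 and -0.00 in wild type. Under IME1 alone PRD1 was lower in kfc1 at 0, 8 and 12 h and higher at 2, 4 and 6 h. Under IME1 and RIM4 it was lower in kfc1 at 12 h and higher at 0, 24 and 48 h. KAR4 was higher in kfc1 in the arms with IME1: from 0 to 12 h it had 0.04, 0.31, 0.96, 1.17, 1.27 and 1.58 in kfc1, against -0.52, -0.46, 0.13, 0.36, 0.36 and 0.85 in wild type. Under IME1 and RIM4 it was also higher in kfc1 at each hour, by 0.48 to 1.08, and without overexpression it was lower in kfc1 at each hour, with differences of -0.02 to -0.53. Whether reads were counted by strand is not given in the sources used here, and the part of neighbouring transcripts in the PEX34 value was not tested.

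No other proliferation gene was called between genotypes. PEX25 was at 1.26, 0.98, 0.80, 0.61 and 0.49 from 2 to 12 h without overexpression in kfc1, against 0.41, 0.33, 0.16, 0.29 and 0.30 in wild type, a mean difference of 0.53. PEX11 was at -0.88, -0.62 and -0.23 at 0, 2 and 4 h in kfc1, against 0, -0.09 and -0.02 in wild type, and lay below wild type in 14 of the 16 pairs. Under IME1 and RIM4, PEX11 was low in both genotypes, at -1.08, -1.32 and -0.80 from 12 to 48 h in kfc1 and -1.39, -0.74 and -0.60 in wild type. PEX35 was high there in both, at 0.86, 1.36 and 1.26 in kfc1 and 1.07, 0.92 and 0.90 in wild type. PEX27 stayed within 1 log2 unit of 0 in every condition.

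**Figure D4:**
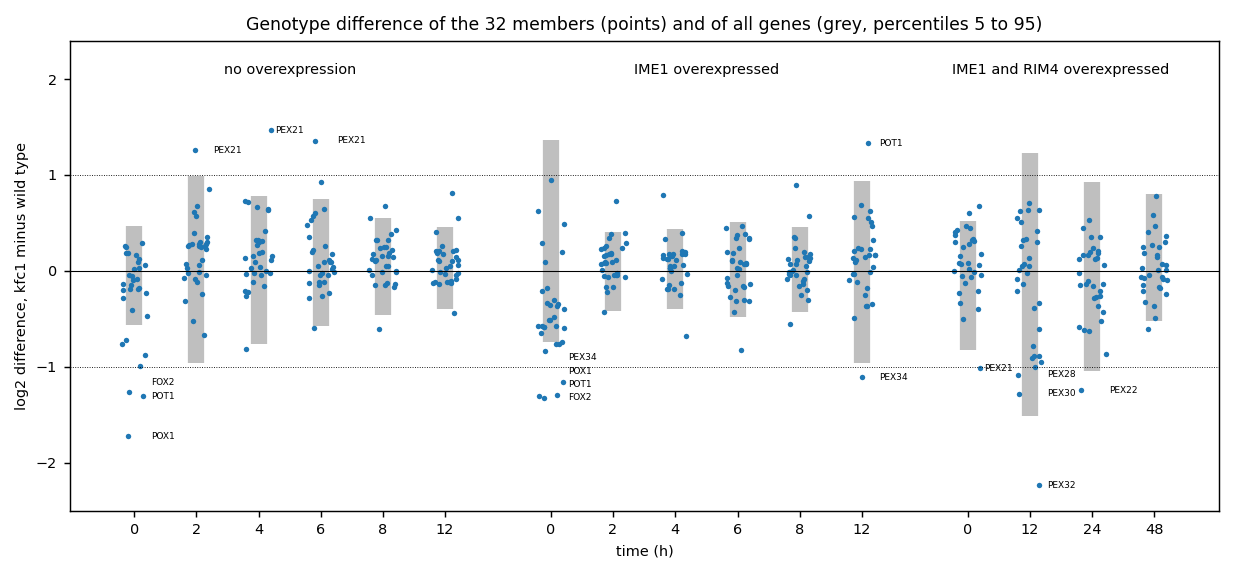
Log2 difference, kfc1 minus wild type, of the 32 genes (points, spread sideways for view) at each hour of the 3 arms, with grey bars from the 5th to the 95th percentile of all genes and dotted lines at -1 and 1; genes past the lines are named. The beta-oxidation genes lie below the bars at 0 h in the arms without overexpression and with IME1, PEX21 lies above them at 2, 4 and 6 h without overexpression, and PEX32 lies lowest of the 32 genes at 12 h with IME1 and RIM4, at -2.23.

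The endoplasmic reticulum-associated genes PEX28, PEX29, PEX30, PEX31 and PEX32 encode related membrane proteins that limit peroxisome size and number where the organelle meets the endoplasmic reticulum. Without overexpression they stayed between -0.33 and 0.35 in either genotype. When IME1 and RIM4 were overexpressed, 3 of the 5 were low at 12 h in kfc1 and high in wild type. PEX32 stood at 0.65, -0.48, 1.92 and 0.79 at 0, 12, 24 and 48 h in kfc1, against 0.18, 1.76, 2.02 and 0.21 in wild type. PEX28 stood at 0.20, -0.36, 1.06 and 0.35 in kfc1, against -0.18, 0.72, 1.00 and 0.20 in wild type. PEX30 stood at 0.08, -0.49, 0.66 and -0.12 in kfc1, against -0.25, 0.79, 0.41 and 0.20 in wild type.

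All 3 were below their 0 h value in kfc1 at 12 h, where they were above it in wild type, and at 24 h the genotypes were within 0.25 of each other. At 12 h the differences were -2.23 for PEX32, -1.28 for PEX30 and -1.08 for PEX28. That is 3 of 32 genes called lower, against 11.1% of all genes, and 0 called higher, against 8.06%; PEX28 was at -0.97 once columns were centred on their mean. The share of members called is near the background here. PEX31 went the other way at this hour, at 0.99 in kfc1 and 0.29 in wild type, and PEX29 had -0.29 in kfc1 and -0.26 in wild type.

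NDT80, the transcription factor that opens the middle sporulation programme, was also lower in kfc1 at 12 h. It stood at 0.11, 1.26, 4.07 and 2.71 at 0, 12, 24 and 48 h in kfc1, against -0.10, 4.61, 3.63 and 1.48 in wild type. Unlike PEX28, PEX30 and PEX32, it lay above its 0 h value in kfc1 at that hour, and its part in their values was not tested. The core of its binding site, read on both strands as C, then A or G, then CAAA, then A or T, was found in the 500 bases before 9 of 32 members (28.1%) and 1838 of 6002 genes (30.6%). PEX28 and PEX30 were among the 9 and PEX32 was not. In 300 bases it was found before 5 of 32 members (15.6%), PEX30 but neither PEX28 nor PEX32 among them, and before 1192 genes (19.9%). This search was added after the values were seen. POP7, divergent from PEX32 at 480 bases, had 0.48, 0.05, 1.42 and 0.80 in kfc1, against -0.00, 1.75, 1.40 and 0.38 in wild type. Within the arm with IME1 and RIM4, POP7 and PEX32 thus had their lowest kfc1 value at the same hour, 12 h.

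Adding RIM4 to IME1 at 12 h in wild type called PEX32 higher by 2.00, PEX28 by 1.16 and PEX30 by 1.03. This contrast and the genotype contrast at 12 h share the wild type column with both genes, so that calls in both are partly built in. The calls are 3 of 32 against 8.98% of all genes, with 0 lower against 5.97%, and PEX30 was at 0.98 after mean centring. In kfc1 the same contrast gave 0.25 for PEX32, -0.09 for PEX28 and 0.00 for PEX30. The 1 member called in kfc1 was PEX22, lower, at -1.04, against 2.72% of all genes, with 0 higher, against 2.06%. The wild type IME1 samples are marked as re-used and the wild type samples with RIM4 are not, so re-use and added RIM4 cannot be told apart in wild type. RIM4 itself was high at 12 h with IME1 alone, at 3.72 in wild type and 2.62 in kfc1. With both genes it was at 4.23 in wild type and 4.36 in kfc1.

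PEX22, which anchors the ubiquitin-conjugating enzyme Pex4 on the peroxisome membrane, was below its 0 h value at 12 h in kfc1 and was still below wild type at 24 and 48 h. It stood at -0.07, -0.66, 0.61 and 0.13 in kfc1, against -0.02, 0.34, 1.85 and 0.63 in wild type. At 24 h it was the 1 of 32 genes called lower in kfc1, at -1.25, against 5.45% of all genes, with 0 called higher, against 4.07%. At 12 h its difference was -0.998, just short of the rule. At 48 h 0 of 32 members were called, against 3.69% of all genes in either direction, and PEX34 at -0.61 and PEX21 at 0.78 were the extremes.

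**Figure D5:**
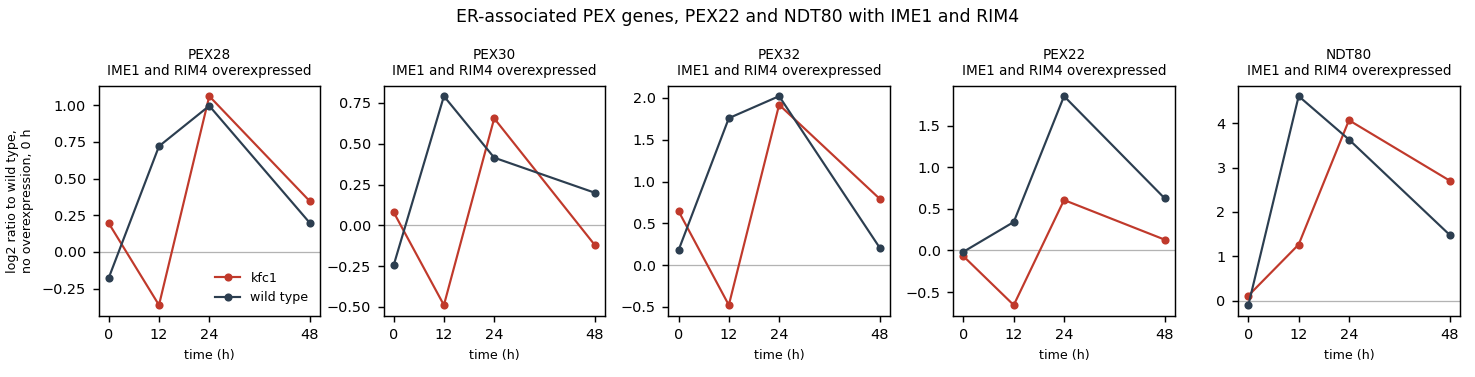
Log2 ratio of PEX28, PEX30, PEX32, PEX22 and NDT80 to wild type without overexpression at 0 h, against time in hours, with IME1 and RIM4 overexpressed, with kfc1 in red and wild type in dark blue; each panel has its own vertical scale. At 12 h kfc1 lies below wild type in all 5 panels, and at 24 h PEX32 is at 1.92 in kfc1 and 2.02 in wild type.

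Over the wild type course with both genes, PEX32 at 1.15, PEX35 at 1.10 and PEX19 at 1.05 were called higher, 3 of 32 against 15.5% of all genes, and PEX10 at -1.02 lower, 1 of 32 against 11.4%. PEX19 encodes the cytosolic receptor for peroxisomal membrane proteins and PEX10 a ubiquitin ligase subunit. Leaving out 12 h took PEX32 to 0.94, PEX19 to 0.99 and PEX10 to -0.90, and the number of calls to 2, and leaving out 24 h took PEX32 to 0.80 and PEX19 to 0.93. Mean centring left 1 call. PEX19 stood at -0.19, -0.07, 0.71 and 0.21 in kfc1, against -0.37, 0.82, 0.93 and 0.31 in wild type. PEX10 stood at 0.06, -0.94, -0.85 and -0.83 in kfc1, against -0.02, -1.28, -0.97 and -0.86 in wild type, and was thus low in both.

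The rest of the import machine was called between genotypes in no comparison. The docking genes PEX13, PEX14 and PEX17 stayed between -0.54 and 0.81 in all 32 conditions, and differed between genotypes by -0.63 to 0.62. PEX2, a partner of PEX10 in the ubiquitin ligase, and the conjugating enzyme gene PEX4 were called in no comparison. PEX6, an ATPase that extracts the receptor, and its membrane anchor PEX15 were called in none. PEX8, which bridges docking and ubiquitin complexes from inside, lay between -0.29 and 0.76. PEX3, the membrane anchor of PEX19, stood at 0 h with IME1 at 0.35 in kfc1 and 1.11 in wild type, without reaching the rule.

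Beyond the 32 genes, 40 partner genes of fatty acid uptake, auxiliary oxidation, redox and acetyl exchange, division and turnover were examined, and all 40 had values. Between genotypes without overexpression, 0 of 40 were called at 0 h (median -0.28), against 1.14% of all genes lower and 0.507% higher, and 0 over 2 to 12 h (median 0.24), against 0.369% lower and 1.43% higher. The kfc1 course called 15 of 40 higher than 0 h, led by STR3, a cystathionine beta-lyase of peroxisomes, at 2.86 and CTA1, the peroxisomal catalase, at 2.79. That is 37.5% of the partners, against 6.85% of all genes. The partner list was chosen with earlier results of these data known. The kfc1 0 h column enters both this course and the 0 h difference. The wild type course called 2 of 40, STR3 at 1.63 and CTA1 at 1.31, against 3.64% of all genes in either direction. Next in kfc1 came the acetyl-carnitine genes YAT2 at 1.61 and CAT2 at 1.41, the isomerase relative DCI1 at 1.59 and the acyl-CoA synthetase FAA2 at 1.38. At 0 h 29 of the 40 partners lay below wild type in kfc1, down to -0.92 for IDP3, without a call.

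With IME1 at 0 h, 3 of 40 partners were called lower in kfc1: IDP3, the peroxisomal isocitrate dehydrogenase, at -1.26, YAT2 at -1.08 and the isomerase ECI1 at -1.05. These 7.5% stand against 1.86% of all genes, and 0 were called higher, against 10.7%. The calls rest on the wild type 0 h column that stands apart, at 1.17 for IDP3, 1.69 for YAT2 and 1.09 for ECI1. In kfc1 these genes stood at -0.09, 0.60 and 0.05. At 2 to 8 h 0 were called, against 0.476%. At 12 h CTA1 was higher in kfc1 by 2.02, 1 of 40 against 4.29%, and the carnitine carrier CRC1 lower, at -1.11, 1 of 40 against 4.61%. Like POT1, IDP3 was called lower with IME1 in both genotypes: IME1 minus none gave -1.95 in kfc1 and -1.85 in wild type, and the nicotinamidase PNC1 at -1.28 and the glycerol phosphate dehydrogenase GPD1 at -1.07 were called in wild type too. These are 1 of 40 lower in kfc1, against 2.83% of all genes, and 3 of 40 in wild type, against 3.96%. Under IME1 and RIM4 at 0 h CAT2 was higher in kfc1 by 1.02, 1 of 40 against 0.369% of all genes. At 12 h CIT2, the peroxisomal citrate synthase, was higher by 1.29 and STR3 by 1.06, while the inheritance factor INP1 was lower at -1.46, DCI1 at -1.21, the dienoyl-CoA reductase SPS19 at -1.13 and the division factor FIS1 at -1.01. These are 2 of 40 higher, against 8.06% of all genes, and 4 of 40 lower, against 11.1%. At 24 h IDP3 and CTA1 were lower at -1.16 and -1.13, 2 of 40 against 5.45%, and at 48 h 0 of 40 were called, against 3.69% in either direction. Adding RIM4 to IME1 at 12 h called 0 of 40 in kfc1, against 2.72% of all genes lower and 2.06% higher. In wild type it called 5 higher, led by DCI1 at 1.67, against 8.98%, and 2 lower, CIT2 at -2.45 and CRC1 at -1.33, against 5.97%.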

How the data were processed

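Poly(A) RNA of 64 samples was sequenced by the study. The deposited table holds log2 ratios that the authors made, 1 per gene and condition with both replicates combined; BWA, DESeq2 and sacCer3 are named in the submitters' processing notes, without roles. The log base is not given in the sources used here and was taken as 2. Depth per sample is unknown and no test was possible, as the design had foreseen.

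Values were used as deposited, except that kfc1 at 0 h was added to 5 columns. Differences were taken for all genes in 19 comparisons with Python 3.11.15, pandas 2.3.3 and numpy 2.4.6. The calling rule was also run on simulated data with an assumed noise at single time points, so that run gives no error rate here. Of 6660 systematic names, 5986 matched RefSeq, the source of symbols, coordinates and upstream sequence (R64); 4 lines were empty. Named were POX1, FOX2 and POT1, the 4 highest and the 4 lowest members, called members and up to 6 called partners per comparison; members in a course, by role or with a motif were named further, and some members are not reported here by name. The members and lists were chosen with earlier results of these data known. Alternatives were median and mean centring, columns as deposited, another start column and leaving out each time point.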

Additional observations from a re-analysis of the deposited data

Results flagged for a closer look

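Members called between genotypes in opposite directions in different arms or hours were picked out; none of these differences between arms was tested. PEX21 was higher in kfc1 without overexpression over 2 to 12 h, by 1.11 on the log2 scale, and lower in kfc1 with IME1 and RIM4 at 0 h, at -1.01. POT1 was lower in kfc1 at 0 h, at -1.31 without overexpression and -1.30 with IME1, and higher in kfc1 at 12 h with IME1, by 1.33.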

How the results depend on the processing

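No paired analysis was possible because the replicates are combined in the deposited ratios, and for the same reason no replicate could be left out. Of 117 alternative counts of called members, 110 stayed within 1.5 times the reported count and 7 did not. Centring each column on its median moved 0 of 19 counts. Centring on the mean, chosen after seeing the data, shifts columns by -0.16 to 0.18 and moved 3: the kfc1 difference at 0 h with IME1 and RIM4 gave 0 called members in place of 1, the wild type course in that arm 1 in place of 4, and the kfc1 course 5 in place of 3. That wild type course without 12 h gave 2. With the kfc1 columns as deposited, 5 members in place of 1 were called between genotypes over 2 to 12 h without overexpression, and 8 in place of 1 for IME1 against none in kfc1. With the wild type start without overexpression, the wild type IME1 course called 1 in place of 10 members, and FOX2 was at 0.22 in place of -1.40. For 45 results on single members, 279 alternatives kept direction and call, 22 kept direction without the call and 1 turned. The cause was not tested. Unknown depth limits all small values.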
